A study of Oryctolagus cuniculus with 6 samples.

Results

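The genes described here tie the Schwann cell to its basal lamina. They are PRX, DRP2, DAG1, UTRN, LAMA2, LAMA4, LAMC1, ITGA6, ITGB4 and ITGB1, chosen by symbol, and all 10 were found among the 17396 genes listed for the facial nerve libraries and were kept among the 14003 genes tested. Every Schwann cell lies on a sheet of laminin, collagen and nidogen that it helps to lay down. Dystroglycan and the integrins of the Schwann cell surface hold that sheet from the cell side. In a myelinating Schwann cell, periaxin (PRX) and DRP2 join dystroglycan in plaques where the myelin surface meets the outer membrane, and the cytoplasm left between the plaques forms the channels known as Cajal bands. PRX and DRP2 are largely restricted to myelinating Schwann cells, whereas the other 8 genes are used by many cell types.

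The libraries came from facial nerves of wild-type male Japanese white rabbits, aged 3 to 4 months, with 3 rabbits per group in the study's methods. The labels do not tie a library to a rabbit, so p-values measure the spread between these libraries. They read only ctrl and Itrans, taken here as the FNI and FNI+I-125 groups that the study's results compare. On that reading the main trunk had been cut in both groups, and the nerve was taken on day 14. The FNI group had this transection alone, and the FNI+I-125 group also had an iodine-125 seed of 0.8 mCi placed 0.3 to 0.5 cm from the nerve. The question was how the seed changes expression in the injured nerve, and since both groups carried the injury, none of the values here compare injured with intact nerve.

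Total counts ran from 16031151 to 16798012 per library. Values are given as CPM, counts made comparable between libraries by edgeR's TMM scaling, always in the order of replicates 1, 2 and 3. Every library held SOX10, a transcription factor of Schwann cells in every state. SOX10 stood at 275, 276 and 229 CPM in FNI nerves against 54.4, 133 and 222 CPM in FNI+I-125 nerves, without overlap (log2 fold change -0.93, standard error 0.48, edgeR adjusted p = 0.344), and its log2 fold change was -0.55 without FNI+I-125 replicate 1 and -1.47 without FNI+I-125 replicate 3. The tissue pieces differed in their other contents. The 9 skeletal muscle markers found, of 12 listed, summed to 81.8, 24.5 and 46.9 CPM in FNI nerves and to 5075, 4403 and 17.8 CPM with the seed, so muscle RNA was high in FNI+I-125 replicates 1 and 2 alone, and MYH4 was at 0 in replicate 3 of each group. The 7 epithelial and gland markers found, of 8 listed, summed to 3492, 48754 and 171 CPM against 608, 50.6 and 1356 CPM, with most of the highest sum from DNASE1, named after its values were seen. The 7 macrophage markers, none at 0, summed to 617, 795 and 200 CPM against 1223, 1513 and 1052 CPM, without overlap and lowest in FNI replicate 3. For 5 of the 7 all FNI+I-125 nerves exceeded all FNI nerves, as they did for 14.8% of all genes tested. The 9 repair or immature Schwann cell markers summed to 1154, 1076 and 581 CPM against 452, 788 and 1272 CPM, with OLIG1 at 0 in FNI replicate 3. The 5 adipocyte markers found, of 6 listed and none at 0, summed to 1603, 2565 and 4292 CPM against 1013, 1361 and 1473 CPM, without overlap, and all 5 had a log2 fold change below 0 (median -1.56, or -0.66 without FNI replicate 3). Among them ADIPOQ, named after its values were seen, was at 1124, 1122 and 1840.5 CPM against 755, 772 and 781 CPM (DESeq2 adjusted p = 0.0243). The part of these cells in the levels below was not tested. FNI replicate 3 held the most myelin RNA, and log2 fold changes without it are given where they differ by over 1.5 times.

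**Figure D1:**
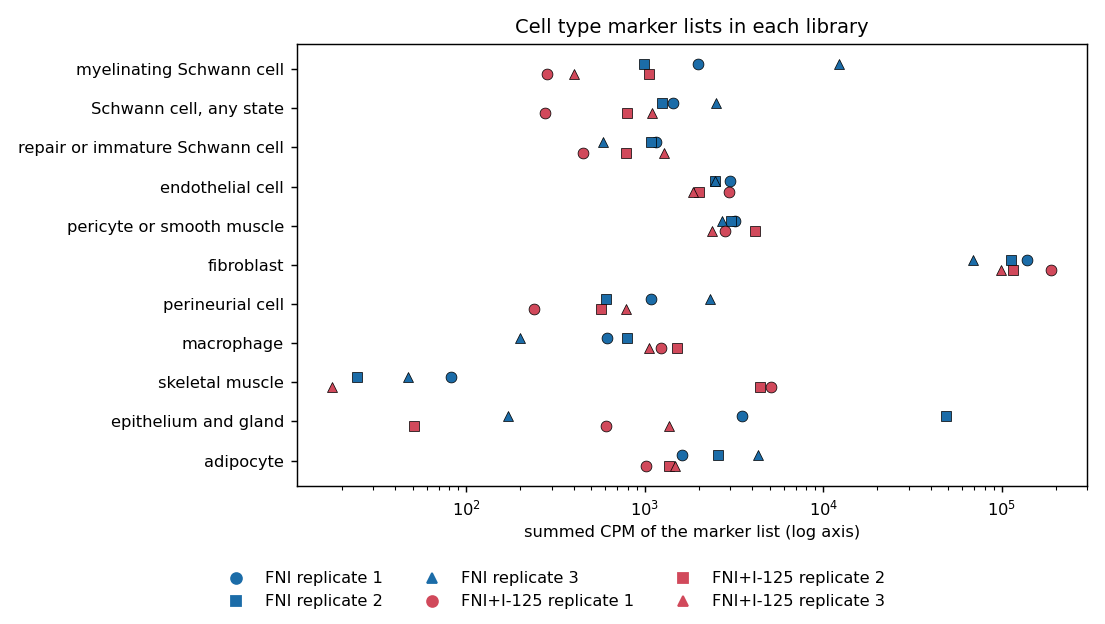
Summed CPM (log axis) of the genes of each cell type marker list, with 1 point per library, FNI in blue and FNI+I-125 in red. The myelinating Schwann cell list ran from 984 to 12148 CPM in the FNI libraries and from 281 to 1048 CPM in the FNI+I-125 libraries, and the skeletal muscle list was high in FNI+I-125 replicates 1 and 2 alone.

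Compared to the FNI group, 9 of the 10 genes had a log2 fold change below 0 in the FNI+I-125 group, where 48.9% of all genes tested did, and ITGB1 had one just above 0. The differences were large for PRX and DRP2, which were 14.7-fold and 18.4-fold lower, and smaller for ITGB4, UTRN, ITGA6 and LAMA2, which were 1.87-fold to 2.66-fold lower. The median log2 fold change of the 10 genes was -0.93 and that of the 8 broadly expressed ones -0.64, against 0.013 for all genes tested. Without FNI replicate 3 the medians were -0.63 and -0.41. At an adjusted p under 0.05 in edgeR's quasi-likelihood test, 0 of the 10 genes and 0 genes of the whole table (0.0%) passed, although PRX and DRP2 exceeded the |log2 FC| of 1.5 that the study set. At an unadjusted p under 0.05, 6 of the 10 genes were lower, where 7.73% of all genes tested were lower at that threshold, and 0 were higher (9.23% of all genes, or 17.0% in either direction). Their libraries did not overlap between the groups for 5 of the 10 genes, all lower in the FNI+I-125 group, against 12.3% of all genes tested as lower, 14.8% as higher and 27.2% in either direction. DESeq2 called LAMA2 alone at an adjusted p under 0.05, where it called 2.71% of all genes as lower, 3.66% as higher and 6.38% in all. It gave 6 at an unadjusted p under 0.05. On simulated counts, DESeq2 made 79 wrong calls beside 183 right ones, against 10 beside 163 for edgeR. Those counts were drawn from edgeR's own dispersion estimates, without the uneven tissue content of these libraries. They cannot decide whether the DESeq2 call of LAMA2 was right. With limma-voom, 0 of the 10 (0.0% of all genes) were called, and 5 were at an unadjusted p under 0.05. The edgeR count of 6 became 2 without FNI replicate 3, 1 without FNI+I-125 replicate 1, 3 without FNI+I-125 replicate 3 and 4 without FNI+I-125 replicate 2. In those fits 9.7% to 14.8% of all genes passed in either direction. In 9 of the 10 genes FNI replicate 3 was the highest of all libraries, and 9 of the 10 log2 fold changes were below 0 with any library left out. In whole nerve, fewer cells of a type and less RNA per cell cannot be told apart.

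**Figure D2:**
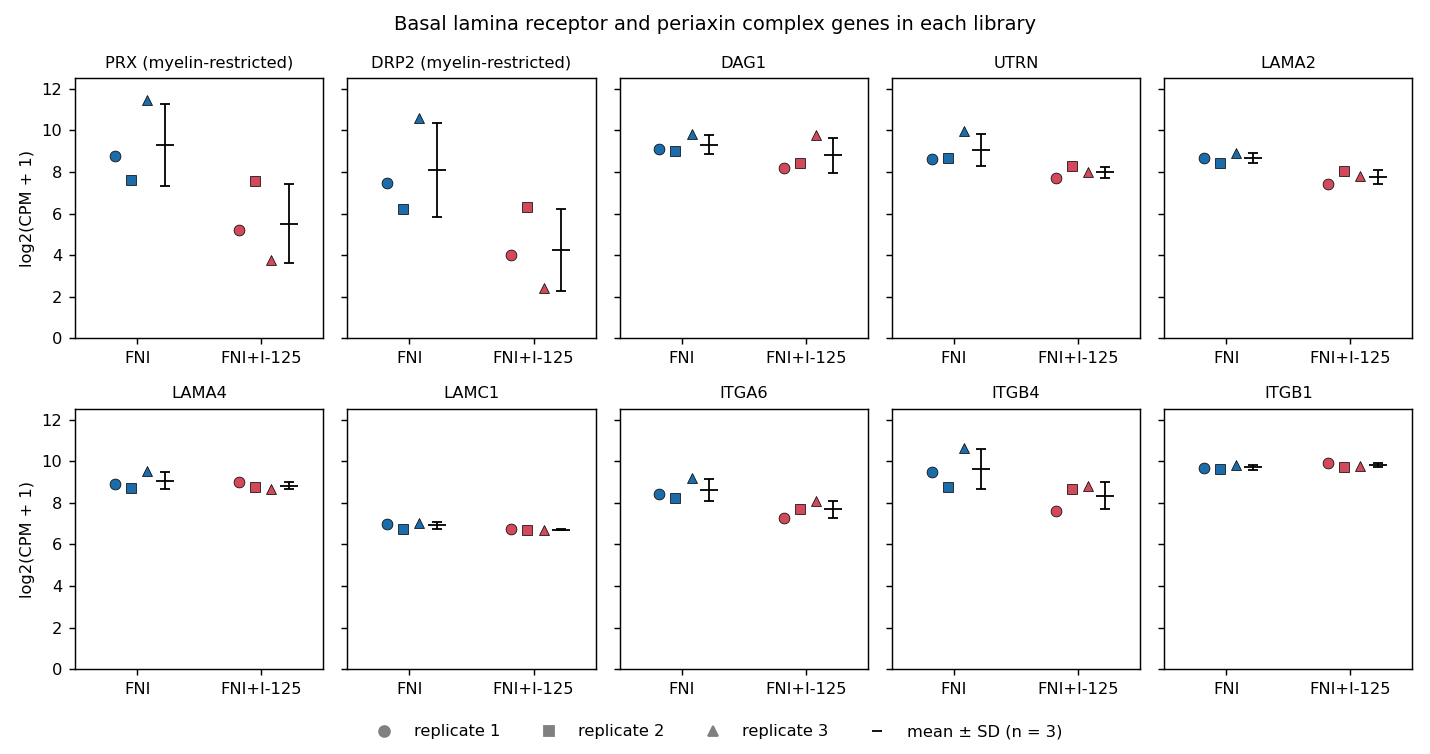
Level of each of the 10 genes, as log2(CPM + 1), in the 3 FNI libraries (blue) and the 3 FNI+I-125 libraries (red), with the marker shape giving the replicate and the bars the mean and SD. PRX and DRP2 spread over many log2 units within each group, while LAMC1 and ITGB1 stayed within narrow bands.

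**Figure D3:**
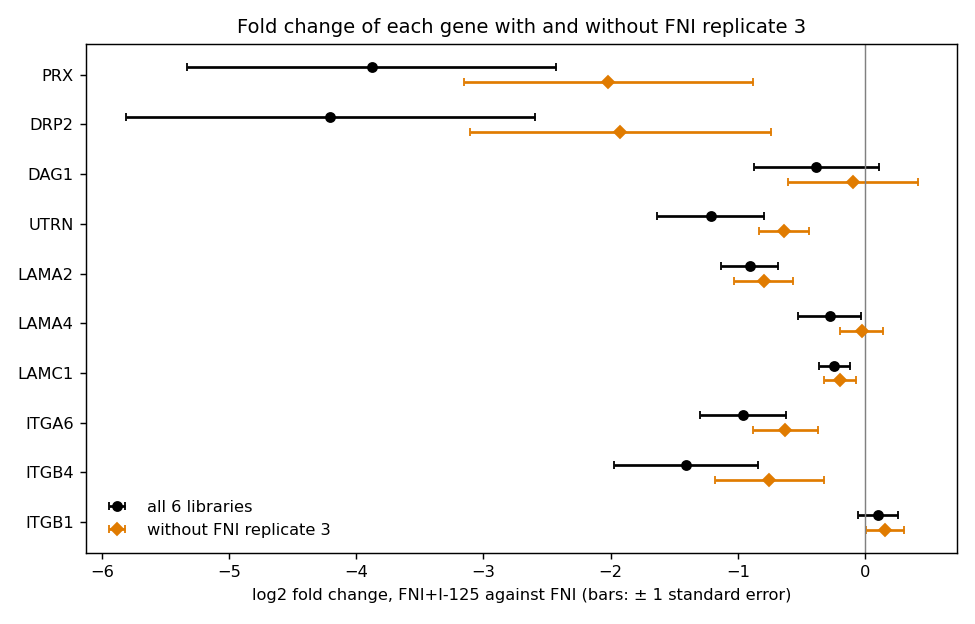
Log2 fold change of each of the 10 genes, FNI+I-125 against FNI, from edgeR with all 6 libraries (black) and without FNI replicate 3 (orange), with bars of 1 standard error. PRX moved from -3.88 to -2.02 and DRP2 from -4.20 to -1.92 when that library was left out, while LAMA2 moved from -0.91 to -0.80.

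PRX encodes periaxin, a scaffold with a PDZ domain that binds DRP2 and is needed for stable myelin. FNI nerves gave 7532, 3067 and 47956 PRX counts, and FNI+I-125 nerves gave 557, 3070 and 216. In CPM, this was 441, 193 and 2834 against 36.4, 187 and 12.7. The groups were apart, but FNI replicate 2 and FNI+I-125 replicate 2 nearly met. The group means were 1156 ± 1459 CPM (SD, n = 3) and 78.6 ± 94.5 CPM (SD, n = 3). Within the FNI group the highest library held 14.7 times the CPM of the lowest, and within the FNI+I-125 group 14.7 times. The spread within a group was as wide as the 14.7-fold difference between the groups (log2 fold change -3.88, standard error 1.45, edgeR adjusted p = 0.283). The exact permutation test of log2(CPM + 1) gave p = 0.1, the smallest that 3 against 3 allow. Leaving out FNI replicate 3 changed this log2 fold change to -2.02, and without FNI+I-125 replicate 2 it was -5.58.

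DRP2, a short relative of dystrophin that links periaxin to dystroglycan, had nearly the same order of libraries. FNI nerves gave 2987, 1165 and 26525 DRP2 counts, and FNI+I-125 nerves gave 234, 1297 and 74. These were 175, 73.4 and 1568 CPM against 15.3, 78.9 and 4.34 CPM. FNI replicate 3 was far above all others, FNI+I-125 replicate 3 was the lowest, and the groups overlapped because FNI+I-125 replicate 2 lay just above FNI replicate 2 (exact permutation test, p = 0.2). The group means were 605 ± 835 CPM (SD, n = 3) and 32.9 ± 40.3 CPM (SD, n = 3), a difference within the spread of the FNI libraries (log2 fold change -4.20, standard error 1.61, edgeR adjusted p = 0.286). Leaving out FNI replicate 3 gave -1.92 and leaving out FNI+I-125 replicate 2 gave -5.97. Neither PRX nor DRP2 kept an unadjusted p under 0.05 without FNI replicate 3, FNI+I-125 replicate 1 or FNI+I-125 replicate 3.

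Across the 6 libraries, PRX spanned 224-fold and DRP2 361-fold, yet their ratio hardly moved. There were 2.52, 2.63 and 1.81 PRX counts for each DRP2 count in FNI nerves and 2.38, 2.37 and 2.92 with the seed, so the highest ratio was 1.61 times the lowest. This ratio compares the gene pair between libraries and says nothing of which transcript is more abundant, since counts were not divided by length. Likeness to PRX was measured over all genes tested as the root mean square difference between log2(CPM + 1) profiles over the 6 libraries, each centred on its own mean. DRP2 was the nearest to PRX, at 0.18 log2 units. NCMAP at 0.22, CLDN19 at 0.24 and KIF19 at 0.39 log2 units were also among the 5 nearest. The 5 nearest to DRP2 held PRX, at 0.18, and the same 3 genes, at 0.32 for NCMAP and up to 0.44 for KIF19. NCMAP is a membrane protein of noncompact myelin and CLDN19 a tight junction protein of Schwann cells. NCMAP stood at 211, 94.8 and 1386 CPM in the FNI libraries and 16.1, 81.8 and 8.63 CPM in the FNI+I-125 libraries. This is the order of libraries that PRX has, from FNI replicate 3 down to FNI+I-125 replicate 3. CLDN19 stood at 72.8, 35.4 and 379.97 CPM in the FNI libraries and 3.86, 30.9 and 1.82 CPM in the FNI+I-125 libraries.

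Dystroglycan, the product of DAG1, spans the Schwann cell membrane, binding laminin outside and dystrophin relatives inside. DAG1 was at 549, 508 and 911 CPM in FNI nerves against 289, 346 and 875 CPM in FNI+I-125 nerves. FNI+I-125 replicate 3 reached the level of FNI replicate 3, whereas FNI+I-125 replicates 1 and 2 were lower than all FNI nerves (p = 0.4, exact permutation test). The group difference was within the spread of replicates (log2 fold change -0.38, standard error 0.49, edgeR adjusted p = 0.683, 95% interval -1.58 to 0.81). Without FNI+I-125 replicate 3, the log2 fold change was -1.06, and without FNI replicate 3 it was -0.096. The library with the fewest PRX counts held nearly the most DAG1.

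UTRN encodes utrophin, the relative of dystrophin that binds dystroglycan in Schwann cells outside the periaxin plaques. It stood at 389, 401 and 999 CPM against 211, 308 and 252 CPM. All FNI+I-125 libraries were lower than all FNI libraries, and FNI replicate 3 was far above the rest. The means were 596 ± 349 CPM (SD, n = 3) and 257 ± 48.3 CPM (SD, n = 3) (log2 fold change -1.21, standard error 0.42, edgeR adjusted p = 0.280). UTRN kept an unadjusted p under 0.05 without FNI replicate 3, when its log2 fold change was -0.64, but not without FNI+I-125 replicate 1 or 3. DMD, the dystrophin gene, stood at 90.7, 69.2 and 231 CPM against 46.8, 92.3 and 32.1 CPM, with overlapping groups (log2 fold change -1.19, standard error 0.59, edgeR adjusted p = 0.334), and its log2 fold change was -0.50 without FNI replicate 3. The UTRN to DMD ratio, a comparison chosen after the values were seen, differed by 0.034 on the log2 scale between the groups (exact permutation test, p = 0.8, adjusted p = 0.8).

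Of 15 other genes of the dystrophin-glycoprotein complex listed, 13 were in the files and 12 were tested. Their median log2 fold change was -0.31, or -0.045 without FNI replicate 3, 10 were below 0, and 1 was lower at an unadjusted p under 0.05. For this list and those below, all genes tested had a median of 0.013, with 7.73% lower and 9.23% higher at that threshold. The 1 gene was SNTB1, a syntrophin adaptor, at 30.2, 34.96 and 62.8 CPM against 8.17, 17.3 and 20.9 CPM (log2 fold change -1.46, standard error 0.44, edgeR adjusted p = 0.280). All of its FNI+I-125 libraries were below the FNI libraries, and DESeq2 gave an adjusted p of 0.0323. SNTB2, the most abundant by counts, was even, at 138, 123 and 133 CPM against 132, 112 and 132 CPM (log2 fold change -0.066, standard error 0.12, edgeR adjusted p = 0.784). The sarcoglycans SGCD (log2 fold change -0.99) and SGCA (1.03) had the next smallest p-values and opposite signs, and the groups overlapped for both genes. Without FNI replicate 3, SGCD stood at -0.47 and SGCA at 0.69. The count of 1 lower gene was 3 without FNI+I-125 replicate 2, 2 without FNI replicate 1 or FNI replicate 2, and 1 without each of the others.

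Dystroglycan binds laminin through a sugar chain built by a series of enzymes, of which 15 of 17 considered here were tested. Their median log2 fold change was -0.28, or -0.15 without FNI replicate 3. At an unadjusted p under 0.05, 5 were lower and 1 was higher, so differences in either direction stood beside genes that were even. B4GAT1, which primes the laminin-binding end of the chain, was at 48.4, 49.8 and 50.1 CPM against 26.5, 41.3 and 35.6 CPM (log2 fold change -0.52, standard error 0.18, edgeR adjusted p = 0.280). B3GALNT2, which adds a sugar to the core of the chain, was at 58.6, 59.5 and 67.7 CPM against 52.2, 48.3 and 49.6 CPM (log2 fold change -0.31, standard error 0.11, edgeR adjusted p = 0.280). DPM1, part of the enzyme that makes the mannose donor, was the higher gene, at 12.4, 11.7 and 12.2 CPM against 15.2, 16.4 and 16.5 CPM (log2 fold change 0.41, standard error 0.14, edgeR adjusted p = 0.280). The groups did not overlap for any of these 3 genes, and the steps were below 1 on the log2 scale. POMGNT1, the most abundant by counts, had a log2 fold change of -0.54 with overlapping groups, or -0.15 without FNI replicate 3. The count of 5 lower enzymes was 1 without FNI replicate 3 or FNI+I-125 replicate 2, 2 without FNI replicate 1, FNI+I-125 replicate 1 or FNI+I-125 replicate 3, and 3 without FNI replicate 2.

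Laminins are trimers of an alpha, a beta and a gamma chain. LAMA2, the alpha chain of the main laminin of Schwann cell basal lamina, whose loss causes a muscular dystrophy with neuropathy, stood at 409, 344 and 480.3 CPM in FNI nerves against 168, 265 and 226 CPM in FNI+I-125 nerves. No library of one group reached into the other. The means were 411 ± 68.02 CPM (SD, n = 3) and 219.6 ± 48.95 CPM (SD, n = 3), and this difference was larger than the SD of either group, though it did not pass the adjusted threshold in edgeR (log2 fold change -0.91, standard error 0.22, edgeR adjusted p = 0.280). LAMA2 had the smallest p-value of the 10 genes, kept an unadjusted p under 0.05 with each of the 6 libraries left out, and was the gene called by DESeq2 (adjusted p = 0.0103). Its log2 fold change stayed between -1.09 and -0.74 over these. Skeletal muscle also makes LAMA2. The libraries with high muscle RNA, FNI+I-125 replicates 1 and 2, held the lowest and the highest LAMA2 of their group. The part of muscle RNA in the LAMA2 level was not tested.

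LAMA4, the alpha chain found in vessels and in immature Schwann cell basal lamina, was at 485, 426 and 739 CPM against 519, 431 and 411 CPM. FNI replicate 3 was the highest and the other 5 libraries were close together (exact permutation test, p = 0.6). The log2 fold change was -0.28 (standard error 0.25, 95% interval -0.89 to 0.33, edgeR adjusted p = 0.555), or -0.024 without FNI replicate 3. The LAMA2 to LAMA4 ratio, chosen after the values were seen, was -0.24, -0.30 and -0.62 on the log2 scale in FNI nerves against -1.62, -0.70 and -0.86 with the seed. All FNI+I-125 nerves had the lower ratio (exact permutation test, p = 0.1, adjusted p = 0.133 over 4 such ratios), with FNI replicate 3 and FNI+I-125 replicate 2 almost touching. The summed CPM of 8 endothelial markers was 3006, 2484 and 2483 against 2975, 2002 and 1849.8, and their part in the LAMA4 level was not tested.

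LAMC1, the gamma chain of most laminins, varied least of the 3 laminin genes among the 10. It stood at 127, 106 and 131 CPM against 105, 102 and 102 CPM. The groups did not overlap, though FNI replicate 2 and FNI+I-125 replicate 1 nearly met. Its log2 fold change was -0.24 (standard error 0.12, 95% interval -0.54 to 0.063, edgeR adjusted p = 0.344), so a change of 1 log2 unit lies outside the interval.

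All 20 other basal lamina genes listed were tested. Their median log2 fold change was -0.28, with 14 below 0 and 6 above, and 4 were lower and 0 higher at an unadjusted p under 0.05. The 4 were COL4A3, COL4A4, LAMB2 and LAMA3, of which LAMA3, an epithelial alpha chain, is named after its values were seen. LAMB2, a beta chain of synaptic laminins, was at 1469.5, 1084 and 1742 CPM against 692, 1065 and 799 CPM (log2 fold change -0.75, standard error 0.27, edgeR adjusted p = 0.280). FNI replicate 2 and FNI+I-125 replicate 2 nearly met. LAMB1, another beta chain, showed no such step, at 582, 564 and 601 CPM against 637, 518 and 512 CPM (log2 fold change -0.068, standard error 0.15, edgeR adjusted p = 0.826). COL4A3 and COL4A4, collagen IV chains of specialised basement membranes, were rare, with COL4A3 at 9.96, 9.70 and 17.1 CPM against 2.48, 6.39 and 5.69 CPM (log2 fold change -1.33, standard error 0.43, edgeR adjusted p = 0.280) and COL4A4 with a log2 fold change of -1.03 (standard error 0.34, or -0.65 without FNI replicate 3). The common collagen IV chain COL4A1, named after its values were seen, was at 2618, 2929 and 2739.6 CPM against 5164, 2416 and 3120.2 CPM, highest in FNI+I-125 replicate 1. HSPG2, which encodes perlecan and was the most abundant by counts, had a log2 fold change of 0.12 (standard error 0.25). It was 0.016 without FNI replicate 3 and turned to -0.067 without FNI+I-125 replicate 1. The count of 4 lower genes was 2 without FNI replicate 1, FNI+I-125 replicate 1 or FNI+I-125 replicate 2, and 3 to 5 without the others.

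The integrin alpha chain ITGA6 pairs with ITGB1 in immature Schwann cells and with ITGB4 once they myelinate. ITGA6 was at 349, 297 and 595 CPM against 155, 208 and 273 CPM, and the groups did not overlap. Its means were 413 ± 159 CPM (SD, n = 3) and 212 ± 58.99 CPM (SD, n = 3) (log2 fold change -0.96, standard error 0.34, edgeR adjusted p = 0.280). Without FNI replicate 3, its log2 fold change was -0.63 and its unadjusted p was above 0.05, as it was without FNI+I-125 replicate 1 or 2.

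ITGB4, which also builds the hemidesmosomes of epithelia and is strong in perineurial cells, stood at 719, 435 and 1615 CPM against 191, 408 and 443 CPM. The groups overlapped slightly, since FNI+I-125 replicate 3 lay above FNI replicate 2 (exact permutation test, p = 0.2). The log2 fold change was -1.41 (standard error 0.57, edgeR adjusted p = 0.292), or -0.75 without FNI replicate 3, and its unadjusted p was above 0.05 without any one library other than FNI replicate 2. The epithelial keratin KRT5, named after its values were seen, was at 604, 31.6 and 0.887 CPM against 1.57, 0.426 and 948 CPM. CDH1, another epithelial marker named after its values were seen, was at 105, 46.4 and 144 CPM against 5.10, 9.19 and 132 CPM, highest in FNI replicate 3. The part of epithelial RNA in the ITGB4 level was not tested. The perineurial markers CLDN1 and SLC2A1, likewise named after their values were seen, were at 45.9, 43.97 and 128 CPM against 11.9, 26.8 and 27.00 CPM and at 183, 94.05 and 584 CPM against 25.8, 124 and 124 CPM. Both were highest in FNI replicate 3, whereas KRT19 of the same list was lowest there, at 137, 28.9 and 0.827 CPM against 9.35, 5.42 and 188 CPM. The part of perineurial RNA in the ITGB4 level was not tested, and the list has only 5 genes, 1 of which is ITGB4. These summed to 1087, 603 and 2328 CPM against 238, 565 and 786 CPM, with CXADR at 0 in FNI replicate 3 and FNI+I-125 replicate 1.

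ITGB1, the beta chain that most integrins of the nerve share, was even, at 805, 786 and 918 CPM against 972, 854 and 868 CPM. Its log2 fold change of 0.10 was smaller than its standard error of 0.16, with a 95% interval of -0.28 to 0.49 (edgeR adjusted p = 0.736). It was 0.156 without FNI replicate 3 and above 0 with any library left out. The other integrin genes were set against ITGB1 within each library, a comparison chosen after the values were seen. The ITGA6 to ITGB1 ratio was -1.20, -1.40 and -0.63 on the log2 scale in FNI nerves against -2.64, -2.03 and -1.66 with the seed, a difference of -1.03 (exact permutation test, p = 0.1, adjusted p = 0.133). The ITGB4 to ITGB1 ratio was -0.16, -0.85 and 0.82 against -2.34, -1.06 and -0.97, a difference of -1.39 (exact permutation test, p = 0.1, adjusted p = 0.133). Both ratios were lower in every FNI+I-125 library than in any FNI library.

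Among other laminin receptors and the proteins that link integrins to actin, 18 of 19 listed were tested, with a median log2 fold change of -0.056 (0.053 without FNI replicate 3), 3 lower and 0 higher at an unadjusted p under 0.05. The 3 lower genes were receptors, and without FNI replicate 3 their log2 fold changes were -0.81 for ITGA7, -0.62 for BCAM and -0.56 for ITGA3. ITGA7, a laminin receptor chain of Schwann cells and muscle, was at 294, 348 and 793 CPM against 160.2, 241 and 154 CPM (log2 fold change -1.37, standard error 0.43, edgeR adjusted p = 0.280), and DESeq2 gave an adjusted p of 0.0366. Muscle also makes ITGA7, and muscle RNA was high in FNI+I-125 replicates 1 and 2. The part of muscle RNA in the ITGA7 level was not tested. BCAM, a laminin-binding surface protein, was at 288, 235 and 515 CPM against 138, 210.4 and 168 CPM (log2 fold change -1.01, standard error 0.34, edgeR adjusted p = 0.280). ITGA3, another laminin receptor chain, was at 59.6, 42.6 and 91.3 CPM against 24.5, 39.5 and 41.3 CPM (log2 fold change -0.88, standard error 0.34, edgeR adjusted p = 0.286). None of the linkers was among the lower genes, and TLN1, the talin gene and the most abundant by counts, was at 798, 759.96 and 894 CPM against 929, 1026 and 936 CPM (log2 fold change 0.24, standard error 0.16, edgeR adjusted p = 0.429). The count of 3 was 0 without FNI+I-125 replicate 1, 1 without FNI+I-125 replicate 3 and 2 or 3 without each of the others.

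PRX and DRP2 were then compared directly with the 8 broadly expressed genes, by the log2 ratio of their levels within each library, with 16 ratios in all. All 16 ratios had a lower mean in the FNI+I-125 group, by 2.48 to 3.95 on the log2 scale. These ratios are not independent, since PRX and DRP2 rose and fell together across the libraries. Both were also lower by more than any of the 8 genes, so the shared direction follows from the fold changes above. The groups overlapped for 13 of the 16, and the exact permutation test gave p-values of 0.1 to 0.2, with an adjusted p of 0.2 for each, where 3 libraries against 3 cannot go below 0.1. The mean difference over the 8 ratios was -3.13 for PRX and -3.21 for DRP2, or -2.29 and -2.20 without FNI replicate 3. For example, the PRX to DAG1 ratio was -0.32, -1.39 and 1.64 in FNI nerves against -2.95, -0.88 and -6.00 with the seed. FNI+I-125 replicate 2 kept more PRX for its DAG1 than FNI replicate 2 did. The PRX to ITGB1 ratio, -0.87, -2.02 and 1.63 against -4.70, -2.19 and -5.99, was one of the 3 without overlap, beside PRX to LAMA4 and DRP2 to ITGB1.

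Against SOX10, which marks Schwann cells whether or not they myelinate, the PRX ratio was 0.68, -0.51 and 3.63 on the log2 scale in FNI nerves against -0.57, 0.49 and -4.03 with the seed (exact permutation test, p = 0.2, adjusted p = 0.6 over 10 such ratios). FNI+I-125 replicate 2 was inside the FNI range, FNI+I-125 replicate 1 was just below it, and FNI+I-125 replicate 3 was far below it. That library had a SOX10 level of 222 CPM, near the FNI libraries, with 12.7 CPM of PRX, whereas FNI+I-125 replicate 1 had 54.4 CPM of SOX10 with 36.4 CPM of PRX. For the 8 broadly expressed genes, the ratio to SOX10 differed between the groups by -0.15 for ITGB4 to 1.24 for ITGB1, and all of these groups overlapped. ITGB4 was at 1.39, 0.65 and 2.82 against 1.79, 1.61 and 0.99. In the FNI group, replicate 3 had the highest of these ratios for all 8 genes, so the differences depend on that library. Differences without it were not computed for these ratios. UTRN, at 0.50, 0.53 and 2.12 against 1.94, 1.20 and 0.18, had a difference of 0.054 (exact permutation test, p = 1, adjusted p = 1).

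**Figure D4:**
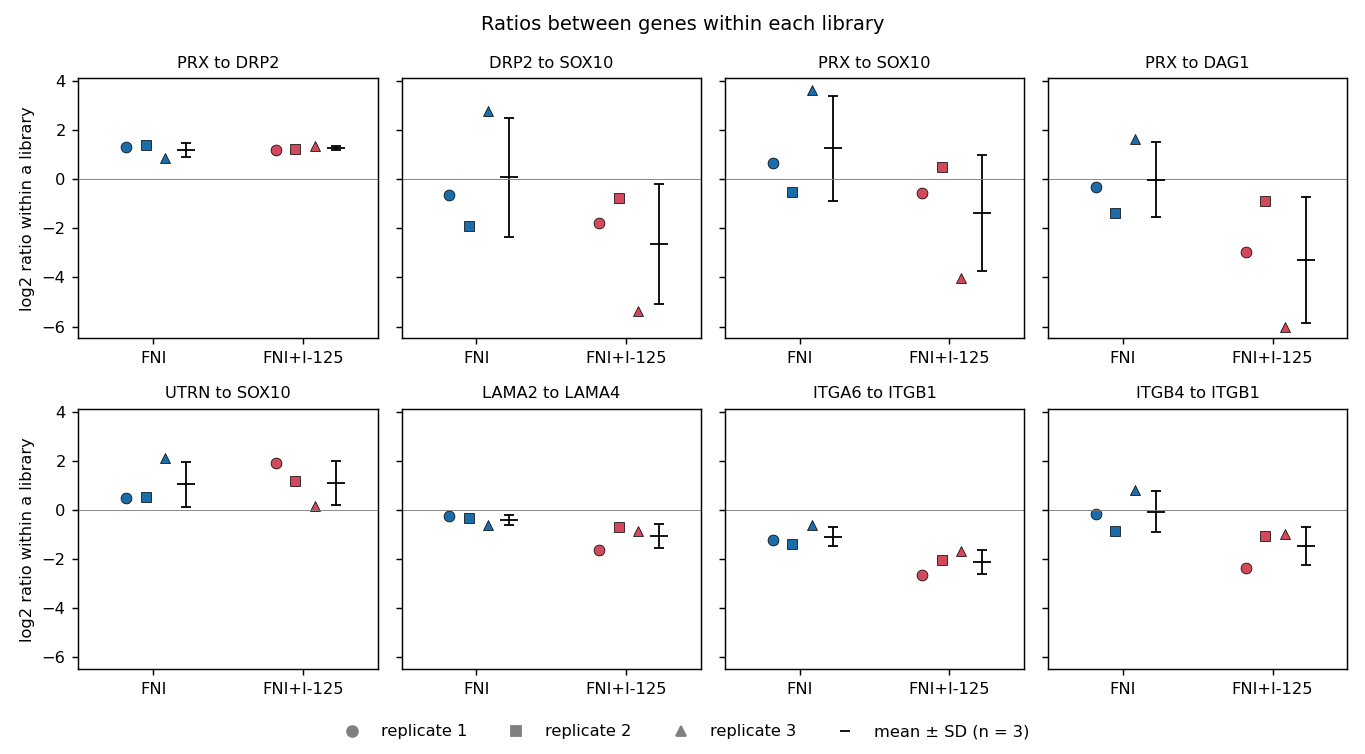
Log2 ratio of CPM + 1 between gene pairs within each library, FNI in blue and FNI+I-125 in red, with the mean and SD of each group. PRX to DRP2 stayed level, while PRX to SOX10, DRP2 to SOX10 and PRX to DAG1 spread over many log2 units with FNI+I-125 replicate 3 lowest, and LAMA2 to LAMA4, ITGA6 to ITGB1 and ITGB4 to ITGB1 were lower in all FNI+I-125 libraries.

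The genes that work beside periaxin were checked as well, from a list of 9 that were all tested, with a median log2 fold change of -0.30 (-0.20 without FNI replicate 3, -0.083 without FNI replicate 1), 1 lower and 0 higher at an unadjusted p under 0.05. The lower gene was SPTAN1, a spectrin of the membrane skeleton, at 974, 893 and 1372 CPM against 578, 761 and 794 CPM (log2 fold change -0.60, standard error 0.24, edgeR adjusted p = 0.289). AHNAK, a giant PDZ protein related to periaxin, was at 2647, 2283 and 4913 CPM against 1526, 2846 and 2022 CPM (log2 fold change -0.62, standard error 0.40, edgeR adjusted p = 0.425), with overlapping groups, and its log2 fold change was -0.23 without FNI replicate 3. Of the proteins that join membrane to actin, MSN was at 367, 387 and 237 CPM against 476, 480.2 and 459 CPM and RDX at 100, 97.4 and 125 CPM against 89.7, 87.7 and 84.2 CPM. Their groups did not overlap and lay in opposite directions, but neither reached an unadjusted p under 0.05 (log2 fold changes 0.52 and -0.30, edgeR adjusted p = 0.298 and 0.313). Without FNI replicate 3 they stood at 0.31 and -0.20. VIM, the vimentin gene and the most abundant by counts, was even at -0.053 (standard error 0.27), and its sign turned without FNI replicate 3 or without FNI+I-125 replicate 1. AHNAK spanned 3.22-fold over the 6 libraries, and the widest span of the 9, that of EZR, named after its values were seen, was 5.83-fold. The lower count was 1 or 0 with each library left out.

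For scale, 11 myelinating Schwann cell markers had a median log2 fold change of -3.29 and 7 markers of Schwann cells in any state one of -0.93. Without FNI replicate 3 these medians were -1.53 and -0.91, and the latter was -0.55 without FNI+I-125 replicate 1 and -1.48 without FNI+I-125 replicate 3. All of these 18 genes were below 0, with 7 of the 11 and 2 of the 7 at an unadjusted p under 0.05. PRX and DRP2, at -3.88 and -4.20, were within the range of the former list, from -4.80 for PMP2 to -0.58 for EGR2 (-2.12 and -0.041 without FNI replicate 3). PMP2 and EGR2 were chosen after their values were seen, as the ends of that range. Of the broadly expressed genes, LAMA2 and ITGA6 were near the median of the any-state list with all libraries. ITGB4 (-1.41) and UTRN (-1.21) were below it, and DAG1 (-0.38), LAMA4 (-0.28), LAMC1 (-0.24) and ITGB1 (0.10) were above it. Without FNI replicate 3, ITGA6 stood at -0.63, and without FNI+I-125 replicate 3, LAMA2 stood at -0.93. The part of the number of myelinating cells in the PRX and DRP2 levels was not tested.

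**Figure D5:**
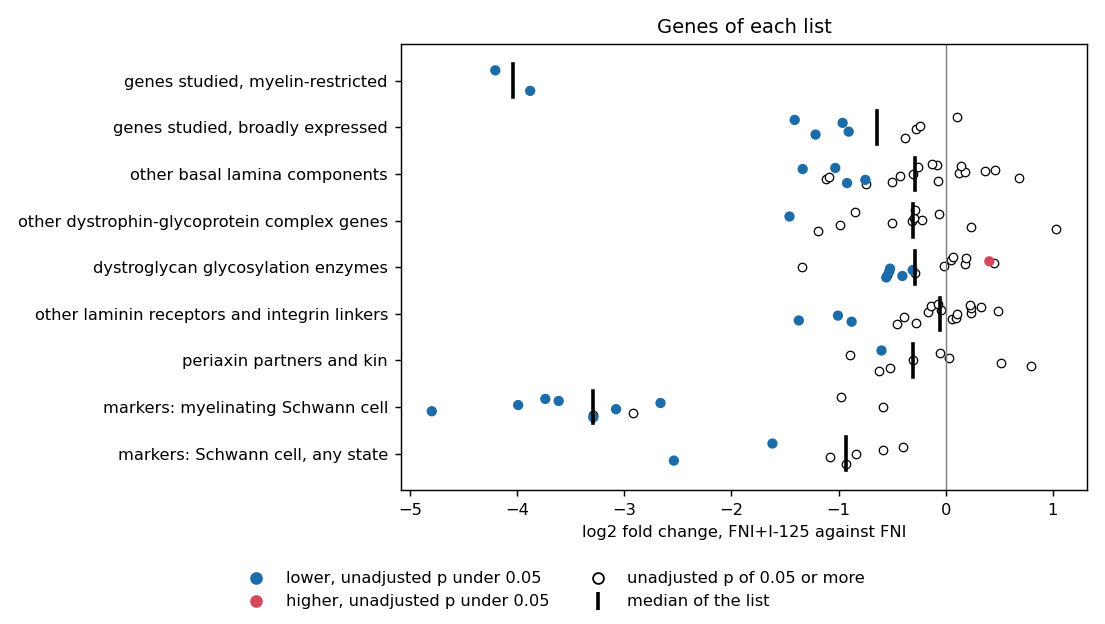
Log2 fold change, FNI+I-125 against FNI, of every tested gene in each list, with genes at an unadjusted p under 0.05 filled and a bar at the median of the list. PRX and DRP2 lie with the myelinating Schwann cell markers, at a median of -3.29, and the basal lamina, dystrophin complex, glycosylation and linker lists have medians between -0.31 and -0.056.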

How the data were processed

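RNA-seq of 6 rabbit facial nerve libraries was analysed. The authors made stranded libraries from mRNA selected with oligo dT and sequenced them on Illumina HiSeq instruments. The submitters' processing notes name HISAT2 and the build OryCun2.0, and the counting program is not given in the sources used here. The authors deposited raw counts per gene, 1 file per library, neither normalized nor pooled. Rows whose name had become a spreadsheet date (25, with 0.188% of the counts) were kept. Of 2992 LOC identifiers, 583 had a symbol in RefSeq's table of assembly mOryCun1.1, another build, so no coordinates are given.

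Counts were fitted in R 4.3.3 with edgeR 4.0.16 (TMM, filterByExpr with a minimum count of 10, glmQLFit and glmQLFTest at their defaults), FNI+I-125 against FNI, two-sided, and p-values were adjusted over the 14003 genes kept by the Benjamini-Hochberg method. Standard errors were the log2 fold change over the square root of F. Ratios and single values were compared on log2(CPM + 1) by an exact two-sided permutation test, with Benjamini-Hochberg adjustment within each family of ratios. The alternatives were DESeq2 1.42.0, limma-voom (limma 3.58.1), the other legacy setting of glmQLFit, library size only, upper-quartile scaling, library sizes without muscle and gland markers, no filter, at least 10 counts in every library, a replicate block, pseudocounts of 0.5 and 5 CPM for the ratios, and each library left out. Leaving out libraries for the list counts and medians and for the genes without overlap, and 4 ratios, were chosen after seeing the data. The fits were tested on simulated data.

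The genes, lists and naming rule were chosen with earlier results of these data known. The rule named the 10 genes, the 3 smallest p-values and the highest mean CPM of each partner list, LAMB1, LAMB2, DMD, AHNAK, SOX10, and the 5 profiles nearest to PRX and to DRP2. Some genes that the rule and the lists hold are not reported here. On the reading of the labels used here, no library came from the sham group, so that group could not be analysed.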

Additional observations from a re-analysis of the deposited data

How the results depend on the processing

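For the 10 genes, 149 of 150 alternative values kept their direction and their side of an adjusted p of 0.05, and 0 turned the direction. The exception was LAMA2 with DESeq2, at a log2 fold change of -0.92 and an adjusted p of 0.0103, which made the count of genes at an adjusted p under 0.05 equal to 1 with DESeq2, against 0 with edgeR and 0 with any library left out. With edgeR and limma-voom, 0 of all genes tested passed an adjusted p under 0.05, so keeping that side shows little about stability. The log2 fold change of PRX ran from -5.58 to -2.02 over the alternatives. The count of genes at an unadjusted p under 0.05, 6 with all libraries, ran from 1 to 7 with each library left out. It was 3 with the replicate block. The replicate numbers were not taken as pairs, since deviations from the group means correlated at 0.0519, -0.191 and -0.137 for numbers 1, 2 and 3 across genes, which are not independent replicates, and no library correlated best with its own number. Of 360 values for the other named genes, 355 kept their direction and side, 2 passed the adjusted threshold with DESeq2 (SNTB1 at -1.48 and ITGA7 at -1.38), and 3 turned the direction, all with a library left out, where HSPG2 ran from -0.067 to 0.21 and VIM from -0.23 to 0.087. The cause of these differences between settings was not tested. All 144 alternative values of the ratios of PRX and DRP2 to the broadly expressed genes moved by less than the replicate spread. Depth was even across libraries, and the lowest counts behind PRX and DRP2 were 216 and 74.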
